A study of Homo sapiens with 12 samples.

Results

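The levels of 10 genes used as markers of liver progenitor cells and of liver cancer stem cells were compared in HA22T and PLC5, a pair of established human hepatocellular carcinoma (HCC) cell lines. The genes, chosen by name with earlier results of these data known, were EPCAM, PROM1, CD44, THY1, SOX9, SOX4, ANPEP, LGR5, ALDH1A1 and ABCG2. All 10 were found among the 20503 genes that could be named on the arrays. Both lines were grown in DMEM with 10% FBS and were transfected for 48 hours by Lipofectamine RNAiMAX, so every sample carried an siRNA at 10 nM. The siRNA was either non-targeting (siControl) or a SMART pool against GALNT1 (siGALNT1), 1 of the enzymes that start mucin-type O-glycosylation. This gave 4 groups of 3 one-colour Agilent arrays each, HA22T siControl, HA22T siGALNT1, PLC5 siControl and PLC5 siGALNT1. Nothing in the labels says that the 3 samples of a group were separate cultures, so p-values measure only the spread between these samples, which may be technical. Each group stands for 1 cell line.

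Progenitor cells of the liver are known to lie near the bile ductules and to give rise to hepatocytes and cholangiocytes. Several of their markers are surface proteins used for sorting, among them EpCAM, CD133 (from PROM1), CD44, CD90 (from THY1) and CD13 (from ANPEP), and the same proteins were later used to sort tumor-initiating cells from HCC. SOX9 and SOX4 are transcription factors of the ductal and progenitor lineage, LGR5 is a receptor for R-spondins that raises Wnt signaling, ALDH1A1 oxidizes retinaldehyde and is read by aldehyde dehydrogenase activity assays, and ABCG2 is the efflux pump behind the side population of dye-excluding cells.

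Values are log2 intensities from which the 75th percentile of the same array was subtracted, so 0 marks that percentile. Levels of different probes are not on a common scale, and single genes were compared with themselves across groups. The summed signals of marker lists given below add different probes despite this and are rough. Of the 58717 spots on an array that were not controls, 36679 to 48873 exceeded background clearly, by the flag of the scanner software that is called well above background here. Replicate arrays correlated at 0.968 to 0.988. The 6 HA22T arrays shared slide 1 with 1 array from each PLC5 group, and the other PLC5 arrays were on slide 2. The targeted gene was lower on every siGALNT1 array than on every siControl array in both lines, with limma log2 differences for the brighter GALNT1 probe of -5.10 in HA22T (adjusted p = 0.0708) and -3.72 in PLC5 (adjusted p = 1.00). The 2nd probe of GALNT1 gave -4.75 in HA22T, adjusted p = 0.0305 by limma, and -3.03 in PLC5, adjusted p = 1.00 by limma. Of 8 hepatocyte markers, all 8 were well above background on every PLC5 siControl array and 4 on every HA22T siControl array. Their summed linear signal was 73.8 to 140 times the 75th percentile of the array in PLC5 siControl and 2.30 to 2.85 times in HA22T siControl. All 4 leukocyte markers, including PTPRC, were well above background on every siControl array of HA22T and of PLC5, as were 3 of 4 endothelial markers and 1 of 4 stellate or fibroblast markers. LRAT, of the last list, was above it on none. The summed signal of the leukocyte markers was 24.2 to 45.7 in HA22T siControl, above the hepatocyte sum there, and 28.7 to 45.9 in PLC5 siControl. In these cell lines neither the flag nor such a sum was therefore read as the presence of a cell type. PECAM1, of the endothelial list, had a mean log2 value of 2.25 in PLC5 siControl and -3.16 in HA22T siControl.

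The first question was how the markers differed between the lines without knockdown. On the siControl arrays, CD44 was higher in HA22T than in PLC5, and SOX9, ANPEP, LGR5 and ALDH1A1 were lower in HA22T. Of the 10 genes, 9 had spots well above background on 3 or more of the 6 arrays and were tested with limma, and 5 of them passed an adjusted p of 0.05, 1 higher and 4 lower in HA22T. Among all 17417 genes tested, each read from its brightest probe, 26.6% passed, 14.2% higher and 12.4% lower in HA22T, and among all 38011 probes 22.0% passed. LGR5 passed the filter only through its PLC5 arrays, where it was bright. The median log2 difference of the 9 genes tested was -1.08, and that of all genes tested was 0.10. The markers were chosen with earlier results of these data known, so these comparisons with all genes cannot test the set. In RNA from bulk cultures, fewer cells with a transcript and less of it per cell cannot be told apart.

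**Figure D1:**
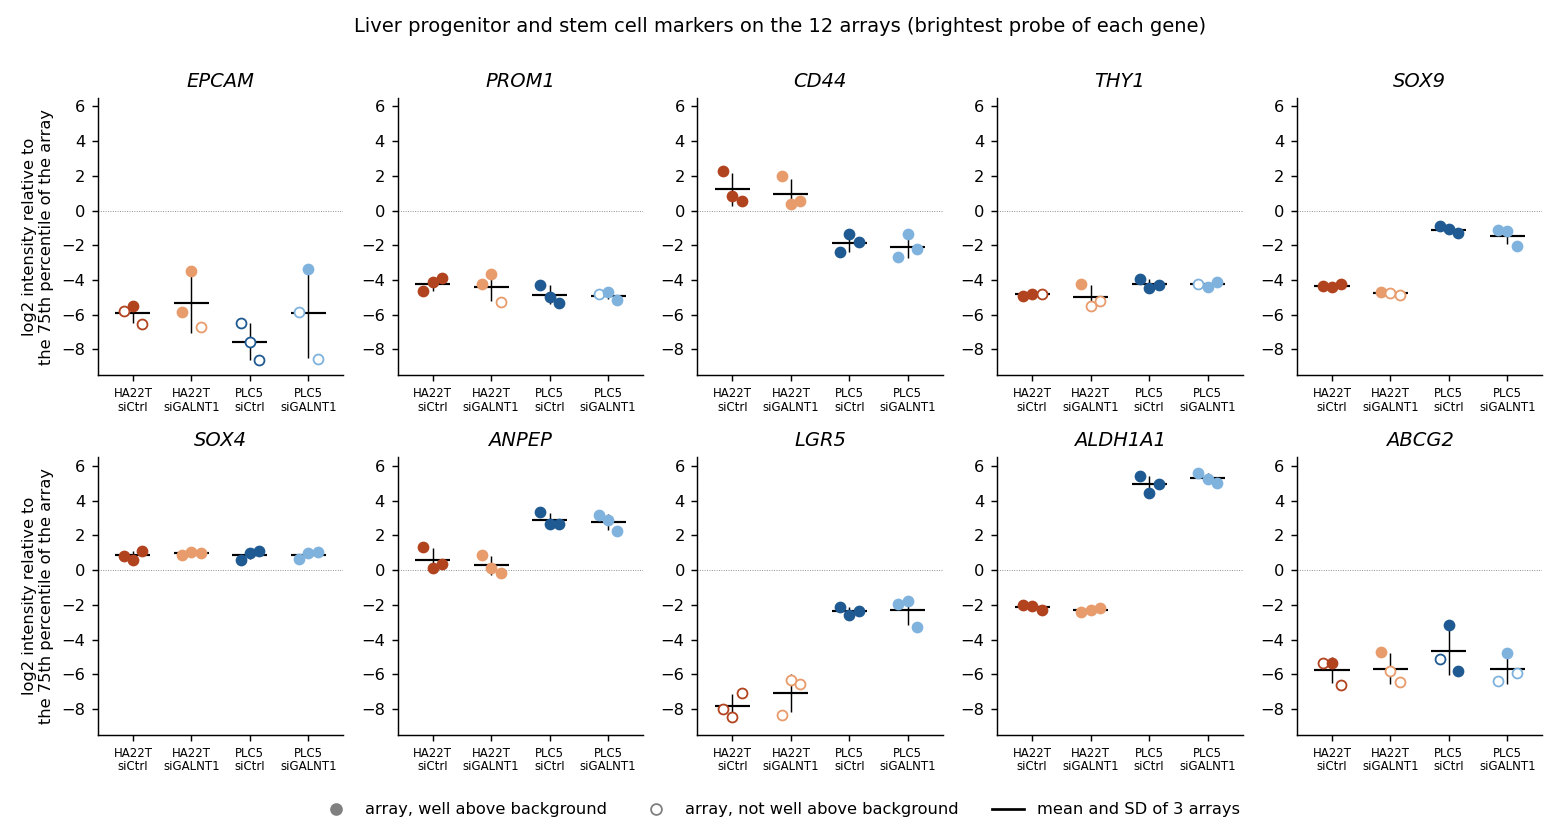
Log2 intensity relative to the 75th percentile of the array (y axis) for the brightest probe of each marker in the 4 groups (x axis). Points are single arrays, open where the spot was not well above background, and horizontal and vertical lines are the mean and SD of 3 arrays. CD44 was above in HA22T and SOX9, ANPEP, LGR5 and ALDH1A1 were above in PLC5, with no overlap between the lines.

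CD44, the receptor for hyaluronan, had the only higher value in HA22T that passed the test. Its brighter probe (A_33_P3294509, designed on NM_000610) read 2.30, 0.83 and 0.52 on the log2 scale on the HA22T siControl arrays and -2.41, -1.37 and -1.80 on the PLC5 siControl arrays. The lowest HA22T array was thus above the highest PLC5 array, and replicate 1 stood highest in HA22T. The log2 difference was 3.08 (standard error 0.57, adjusted p = 0.00226 from limma), or 8.43-fold. A dimmer CD44 probe (A_21_P0000152, designed on the transcript NM_001202557) read -3.27, -3.51 and -4.08 in HA22T siControl and -3.92, -4.72 and -5.05 in PLC5 siControl. There the lines overlapped, and the log2 difference was 0.94 (standard error 0.48, adjusted p = 0.206 from limma), so the probes of CD44 differed in whether they passed. With the mean over both probes the difference was 2.01.

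Of the other surface markers, ANPEP alone passed the test. ANPEP, the membrane aminopeptidase CD13 that hepatocytes carry on their canalicular face, read 1.34, 0.13 and 0.32 in HA22T siControl and 3.35, 2.66 and 2.65 in PLC5 siControl on the log2 scale. Every PLC5 array lay above every HA22T array, and the log2 difference between HA22T and PLC5 was -2.29 (standard error 0.41, adjusted p = 0.00183 from limma), a level 4.89-fold lower. THY1, a GPI-anchored glycoprotein of mesenchymal cells, read -4.90, -4.79 and -4.81 in HA22T siControl and -3.92, -4.48 and -4.29 in PLC5 siControl. Its lines did not overlap either, but the log2 difference of -0.61 (95% interval -1.32 to 0.11) did not pass (adjusted p = 0.227 from limma). In all, 6 of the 9 genes tested had lines that did not overlap, against 47.4% of all genes tested, and for a single gene the exact permutation p of 3 against 3 arrays cannot go below 0.1.

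PROM1, a cholesterol-binding protein of membrane protrusions, read -4.64, -4.14 and -3.86 in HA22T siControl and -4.26, -4.99 and -5.31 in PLC5 siControl on the log2 scale. The lines overlapped, and the log2 difference of 0.64 (95% interval -0.28 to 1.55) did not pass (adjusted p = 0.328 from limma). EPCAM, the epithelial adhesion protein, was at the limit of detection. It read -5.76, -5.49 and -6.51 in HA22T siControl and -6.49, -7.55 and -8.63 in PLC5 siControl, and was well above background on 1 HA22T array and on 0 PLC5 arrays of these 6. It was not tested, and no fold is given for it.

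Of the transcription factors, SOX9 differed between the lines and SOX4 did not pass. SOX9 read -4.33, -4.41 and -4.22 in HA22T siControl and -0.91, -1.09 and -1.31 in PLC5 siControl on the log2 scale. The arrays of each line lay close together, and the log2 difference was -3.22 (standard error 0.27, adjusted p = 7.80e-06 from limma), a level 9.32-fold lower in HA22T. With normexp background correction, which adds an offset to every signal, it was -2.53. SOX4 read 0.81, 0.60 and 1.12 in HA22T siControl and 0.60, 0.98 and 1.11 in PLC5 siControl. These values overlapped almost wholly, and the log2 difference was -0.05 (95% interval -0.59 to 0.48, adjusted p = 0.906 from limma), with a sign that changed under median scaling and with the slide as a block.

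LGR5 was measured in PLC5 and not well above background in HA22T. It read -2.13, -2.57 and -2.38 in PLC5 siControl on the log2 scale, and its spots were well above background on 0 of the 3 HA22T siControl arrays, where they read -7.99, -8.46 and -7.07. LGR5 was therefore higher in PLC5, by 9.13-fold or more under an approximate bound. The adjusted p of 3.92e-05 from limma belongs to the fitted difference, which rests on HA22T spots not well above background, and not to this bound. That bound sets the PLC5 mean against the mean of, on each HA22T array, the lowest signal among probes well above background or the LGR5 signal itself where it was higher. That lowest signal is not a strict limit of detection. On HA22T siControl replicate 1 it was -5.71, and an ABCG2 spot at -5.33 on that array was not well above background. With normexp correction the log2 difference between HA22T and PLC5 was -2.57, smaller in size than the bound of 3.19 on the log2 scale.

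ALDH1A1 had a large difference that its brighter probe measured on both sides. Its brighter probe (A_33_P3379644) read -2.02, -2.07 and -2.31 in HA22T siControl and 5.42, 4.42 and 4.98 in PLC5 siControl on the log2 scale, well above background on all 6 arrays. The log2 difference between HA22T and PLC5 was -7.07 (standard error 0.29, adjusted p = 7.31e-08 from limma), a level 134-fold lower in HA22T. The 2nd ALDH1A1 probe (A_23_P83098) read 4.97, 4.06 and 4.74 in PLC5 siControl and -7.33, -4.82 and -6.63 in HA22T siControl, where it was well above background on 1 of 3 arrays. Both probes had the same direction but not the same size, and the 134-fold holds for the brighter probe only. The fitted log2 difference of the 2nd, -10.85 (adjusted p = 3.63e-07 from limma), and that of the mean over both probes, -8.96, rest on 2 HA22T spots that were not well above background, so their size is uncertain. ABCG2 was near background in both lines, at -5.33, -5.34 and -6.62 in HA22T siControl and -5.10, -3.14 and -5.79 in PLC5 siControl. Its values overlapped, and the log2 difference of -1.08 (95% interval -2.65 to 0.48) did not pass (adjusted p = 0.330 from limma). Leaving out 1 array moved it between -1.64 and -0.32, the latter without PLC5 siControl replicate 2.

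Because most arrays of PLC5 were on the other slide, the 5 differences were read again with the slide in view. With the slide as a block the log2 differences were 3.66 for CD44, -3.47 for SOX9, -2.72 for ANPEP and -7.47 for ALDH1A1. Within slide 1, where 1 PLC5 siControl array faced 3 HA22T siControl arrays, they were 3.63, -3.41, -2.76 and -7.55 in the same order. LGR5, for which only a bound was measured, is given no value here. The genes with values kept their direction in both readings. Within slide 1 the lone array of PLC5 is taken to vary like the other groups, so no p-value of a marker is read there.

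The starts of CD44, ANPEP and ALDH1A1 are shown to let the promoters be read beside these values. Windows run from 250 bases before to 50 after a start annotated by RefSeq on GRCh38.p14. ANPEP has an upstream start and a downstream start, of which the downstream one is known from epithelial cells. All are written 5′ to 3′ on the strand of the gene, with capitals for matches to any of 5 short motifs searched on both strands, namely the TATA box with the letters TATAAA, the box of the name CCAAT, the GC box with the letters GGGCGG, a half-site of the factor HNF1 with the letters GTTAAT, and the core of the factors TCF and LEF with the letters CTTTGA.
CD44, chr11:35138921-35139220, plus strand: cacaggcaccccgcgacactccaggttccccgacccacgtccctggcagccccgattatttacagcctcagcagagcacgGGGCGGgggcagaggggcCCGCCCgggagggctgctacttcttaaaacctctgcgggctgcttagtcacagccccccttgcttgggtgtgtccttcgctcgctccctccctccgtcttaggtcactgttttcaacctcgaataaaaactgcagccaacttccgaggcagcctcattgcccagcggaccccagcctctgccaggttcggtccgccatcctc
ANPEP upstream start, chr15:89814803-89815102, minus strand: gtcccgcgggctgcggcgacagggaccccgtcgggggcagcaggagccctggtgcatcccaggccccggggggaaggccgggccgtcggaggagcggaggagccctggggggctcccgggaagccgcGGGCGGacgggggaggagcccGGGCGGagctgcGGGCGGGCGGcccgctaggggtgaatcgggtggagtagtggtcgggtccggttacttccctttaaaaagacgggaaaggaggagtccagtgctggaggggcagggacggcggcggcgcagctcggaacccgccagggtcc
ANPEP downstream start, chr15:89806579-89806878, minus strand: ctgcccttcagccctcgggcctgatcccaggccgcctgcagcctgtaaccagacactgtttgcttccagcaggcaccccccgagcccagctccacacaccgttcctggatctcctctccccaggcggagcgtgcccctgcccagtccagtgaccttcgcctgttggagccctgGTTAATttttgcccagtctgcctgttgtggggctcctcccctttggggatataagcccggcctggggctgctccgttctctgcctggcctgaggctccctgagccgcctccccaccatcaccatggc
ALDH1A1, chr9:72953004-72953303, minus strand: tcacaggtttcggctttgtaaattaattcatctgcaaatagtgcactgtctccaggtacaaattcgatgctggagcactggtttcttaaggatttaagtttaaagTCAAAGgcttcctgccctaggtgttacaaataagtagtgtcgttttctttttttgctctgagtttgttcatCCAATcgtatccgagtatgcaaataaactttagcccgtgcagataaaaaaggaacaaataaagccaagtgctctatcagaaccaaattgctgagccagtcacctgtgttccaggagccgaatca

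The windows differed in the motifs they held. CD44 held 2 GC boxes, 1 on each strand, and the upstream start of ANPEP held 4, of which the last 2 overlap. A GC box was found in 44.9% of the 34796 different windows of this length. The downstream start of ANPEP held the HNF1 half-site, 77 bases before the start, which 6.91% of windows held. ALDH1A1 held a CCAAT box, found in 34.6% of windows, and the TCF/LEF core on the opposite strand, found in 12.9%. No window of these genes held TATAAA, which 11.6% of windows held. A match is a string of letters and not evidence of binding.

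The same comparison was made on the siGALNT1 arrays, which are separate samples of the same lines. Again 9 markers were tested and 5 passed, CD44 higher and SOX9, ANPEP, LGR5 and ALDH1A1 lower in HA22T, where 26.6% of 17201 genes passed, 11.6% higher and 15.0% lower, and 22.9% of 36741 probes. For the brightest probes of these 5 the lines did not overlap on any array, as for 45.8% of the genes tested. CD44 read 1.96, 0.35 and 0.56 in HA22T siGALNT1 and -2.70, -1.37 and -2.19 in PLC5 siGALNT1, a log2 difference of 3.05 (standard error 0.57, adjusted p = 0.00251 from limma). Replicate 1 was again the highest HA22T array. With the methods' t-test CD44 did not pass (adjusted p = 0.0622). The dimmer CD44 probe again overlapped between the lines, with a log2 difference of 1.03 that did not pass (adjusted p = 0.152 from limma).

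SOX9 read -4.68, -4.73 and -4.84 in HA22T siGALNT1, with 1 of these arrays well above background, and -1.14, -1.17 and -2.02 in PLC5 siGALNT1, for a log2 difference of -3.31 (adjusted p = 7.37e-06 from limma). With normexp correction it was -2.20. ANPEP read 0.88, 0.11 and -0.17 in HA22T siGALNT1 and 3.16, 2.88 and 2.25 in PLC5 siGALNT1, for a log2 difference of -2.49 (adjusted p = 0.00107 from limma). In both genes the lines stayed apart on every array. LGR5 was well above background on 0 of 3 HA22T siGALNT1 arrays, where it read -8.35, -6.32 and -6.58, and it passed the filter only through PLC5. It read -1.96, -1.76 and -3.27 in PLC5 siGALNT1, which put it 6.26-fold or more higher in PLC5 under the same approximate bound. The fitted log2 difference of LGR5 was -4.76 and rests on HA22T spots not well above background. The adjusted p of 1.21e-04 from limma belongs to that fit and not to the bound. The fitted difference was -4.12 without HA22T siGALNT1 replicate 1 and -2.40 with normexp correction. ALDH1A1 read -2.39, -2.29 and -2.16 in HA22T siGALNT1 and 5.61, 5.23 and 5.04 in PLC5 siGALNT1, a level 191-fold lower in HA22T (log2 difference -7.58, adjusted p = 4.04e-08 from limma). The 2nd ALDH1A1 probe gave -10.42 (adjusted p = 5.32e-07 from limma), with 1 of 3 HA22T siGALNT1 arrays well above background, so its size is uncertain.

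The other 5 markers did not pass on these arrays. THY1 had a log2 difference of -0.72 (adjusted p = 0.138 from limma), and without HA22T siGALNT1 replicate 1 it was -1.10 and passed (adjusted p = 0.0143 from limma). PROM1 had a log2 difference of 0.52 (95% interval -0.40 to 1.43), SOX4 one of 0.08 (95% interval -0.45 to 0.62) and EPCAM one of 0.56 (95% interval -2.0 to 3.1). ABCG2 was well above background on 1 array of each line and was not tested. Within slide 1, with 1 PLC5 array, the differences of the markers that passed were 3.66 for CD44, -3.61 for SOX9, -2.89 for ANPEP and -7.90 for ALDH1A1. LGR5 has only a bound and is given no value there.

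**Figure D2:**
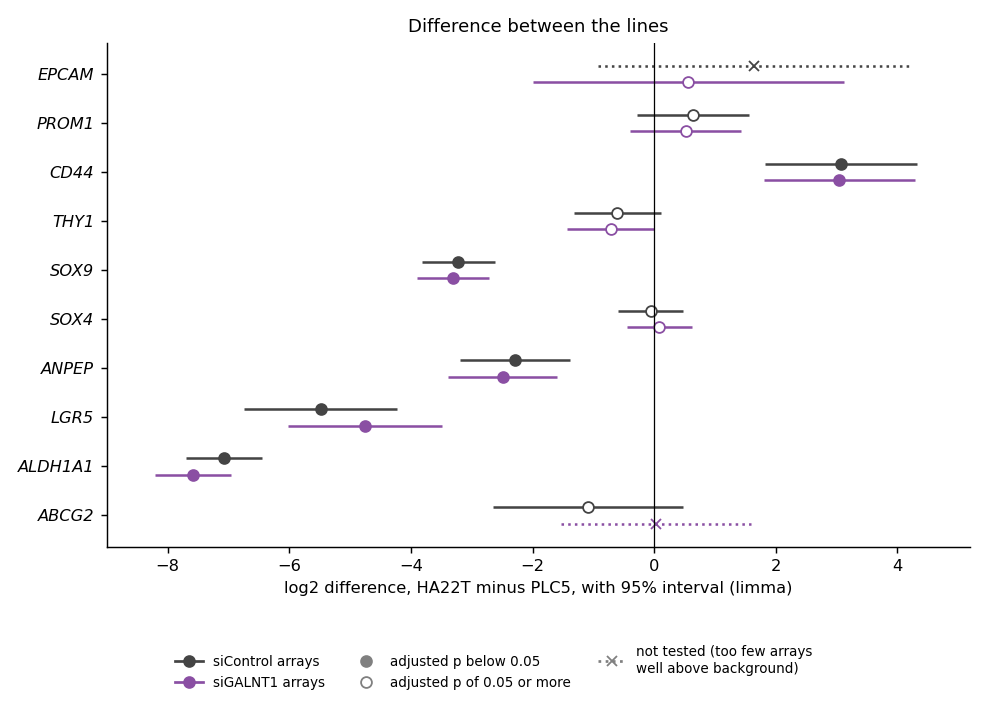
Log2 difference between HA22T and PLC5 (x axis) for each marker (y axis), on the siControl and on the siGALNT1 arrays, with 95% intervals from limma. Filled points passed an adjusted p of 0.05, open points did not, and crosses were not tested. CD44 lies to the right of 0 and SOX9, ANPEP, LGR5 and ALDH1A1 to the left on both sets of arrays; the LGR5 points rest on HA22T spots that were not well above background.

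The second question was whether siGALNT1 changed the markers within a line. None of them passed in HA22T, where 8 of the 10 were tested (0 passed, and 0 had an unadjusted p below 0.05 in limma), and 0.00% of the 16967 genes tested passed. None passed in PLC5 either, where 9 were tested (0 passed, and 0 had an unadjusted p below 0.05 in limma), and 0.00% of 17316 genes passed. The methods' t-test and every other alternative tried also gave 0 markers in both lines. Over all probes, 1 of 36327 (0.00275%) passed in HA22T, which was the 2nd probe of GALNT1, and 0 of 38070 (0.00%) in PLC5. At an unadjusted p below 0.05 in limma there were 1086 and 508. The brighter probe of GALNT1 passed in neither line, with log2 differences of -5.10 in HA22T and -3.72 in PLC5. A marker that did not pass may therefore still have changed.

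SOX9 was the only marker whose groups did not overlap in HA22T, where 11.9% of the genes tested did not overlap. Its values of -4.68, -4.73 and -4.84 with siGALNT1 lay below those of -4.33, -4.41 and -4.22 with siControl. The exact permutation p was 0.1, the smallest possible when the arrays are not paired. With the replicate number as a block, which pairs them, SOX9 did not pass in HA22T either (adjusted p = 0.849 from limma). The log2 difference of SOX9 was -0.43 in HA22T (95% interval -1.03 to 0.17, adjusted p = 1.00 from limma) and -0.35 in PLC5 (95% interval -0.94 to 0.25, adjusted p = 1.00 from limma). Without PLC5 siGALNT1 replicate 3 the PLC5 difference of SOX9 was -0.06, and leaving out single arrays gave a range down to -0.50. In PLC5 the groups of all 9 markers tested overlapped, and 4.68% of the genes tested there did not overlap. With normexp correction the HA22T difference was 0.08, and SOX9 was well above background on 1 of the 3 HA22T siGALNT1 arrays.

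The markers that set the lines apart had differences with siGALNT1 whose intervals included 0. These intervals come from a fit that does not pair same-numbered arrays. For CD44 the log2 difference was -0.26 in HA22T (95% interval -1.51 to 0.99) and -0.23 in PLC5 (95% interval -1.48 to 1.02). ANPEP gave -0.33 in HA22T (95% interval -1.23 to 0.57) and -0.13 in PLC5 (95% interval -1.03 to 0.77). ALDH1A1 gave -0.15 in HA22T (95% interval -0.78 to 0.48) and 0.36 in PLC5 (95% interval -0.27 to 0.99). LGR5 was tested in PLC5 alone, at 0.03 (95% interval -1.23 to 1.29), since no HA22T array had it well above background.

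Among the markers that had not passed between the lines, SOX4 had the narrowest intervals, with a log2 difference of 0.12 in HA22T (95% interval -0.41 to 0.66) and -0.01 in PLC5 (95% interval -0.55 to 0.52). PROM1 gave -0.17 in HA22T and -0.04 in PLC5, and THY1 gave -0.14 and -0.03. Changes of more than about 2-fold in SOX4 lie outside both of its intervals, whereas those of EPCAM and ABCG2 were wide. EPCAM read -5.87, -3.46 and -6.72 in HA22T siGALNT1 and -5.85, -3.34 and -8.55 in PLC5 siGALNT1, so replicate 2 was the highest array in both lines. The log2 difference of EPCAM was 0.57 in HA22T (95% interval -1.99 to 3.13). ABCG2 read -6.41, -4.76 and -5.92 in PLC5 siGALNT1, for a log2 difference of -1.02 in PLC5 (95% interval -2.59 to 0.54). It was -0.25 without PLC5 siControl replicate 2 and -1.58 without PLC5 siControl replicate 3.

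The effect of siGALNT1 was also compared between the lines. For EPCAM, LGR5 and ABCG2, which were too near background to be tested in 1 of the lines, nothing is read from this comparison. Of the other 7 markers, 0 differed in their effect by limma and 0 had an unadjusted p below 0.05, where 0.00% of 17893 genes passed. Their differences of effects ran from -0.51 for ALDH1A1 to 0.14 for SOX4 on the log2 scale.

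**Figure D3:**
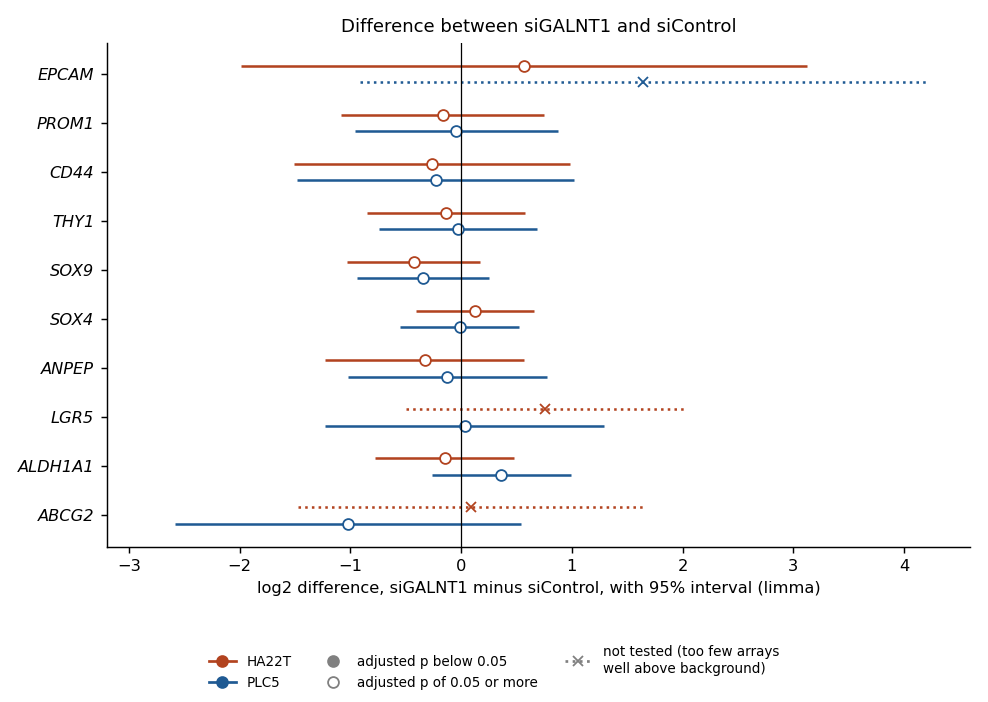
Log2 difference between siGALNT1 and siControl (x axis) for each marker (y axis) in HA22T and in PLC5, with 95% intervals from limma. Open points did not pass and crosses were not tested; no point is filled, and every interval includes 0.

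From 8 lists, also chosen with earlier results known, 65 genes related to the markers were then read. On the siControl arrays 55 of these were tested, and 12 were higher and 14 lower in HA22T, where 14.2% of all genes tested were higher and 12.4% lower. Their median log2 difference was -0.23 against 0.10 over all genes tested. Among 11 other surface markers of progenitors or liver cancer stem cells, 5 were higher in HA22T, 1 was lower and 5 did not pass, beside the same 14.2% and 12.4% of all genes. NCAM1, an adhesion protein of reactive ductules, was higher in HA22T by 4.52 on the log2 scale by its brightest probe (adjusted p = 6.16e-05 from limma). There 1 of 3 PLC5 arrays was well above background. Another NCAM1 probe had means of -2.44 in HA22T and -7.71 in PLC5, where 0 of 3 arrays were well above background. A further one had -5.27 and -6.33, with 1 of 3 arrays well above background in each line, so the size is uncertain. CD24, a small mucin-like surface protein, went the other way at -3.22 (adjusted p = 3.31e-04 from limma). CD47, the signal that keeps macrophages from engulfing a cell, was higher in HA22T by 2.54 on the log2 scale (adjusted p = 6.22e-04 from limma), but with flagged spots left out it had a value on 1 of the 3 HA22T siControl arrays, and that lone array is taken to vary like the other groups.

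Of 8 genes of R-spondin reception and Wnt feedback tested, 0 were higher in HA22T, 3 were lower and 5 did not pass, where 12.4% of all genes tested were lower, with a median log2 difference of -0.74. RNF43, a ubiquitin ligase that removes Frizzled receptors, had a log2 difference of -3.68 (adjusted p = 1.88e-05 from limma). LGR4, another R-spondin receptor, had one of -2.39 (adjusted p = 3.37e-04 from limma), and AXIN2, a feedback inhibitor of Wnt signaling, one of -1.76 (adjusted p = 0.00514 from limma), with 1 of 3 HA22T arrays well above background.

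The relatives of ALDH1A1 were led by ALDH2, the mitochondrial enzyme that clears acetaldehyde, at a log2 difference of -7.63 (adjusted p = 2.63e-07 from limma). ALDH1B1, another mitochondrial member, differed by -0.99 (adjusted p = 0.0401 from limma), and the other 3 of the 5 tested did not pass. ABCC3, a bile acid exporter of the basolateral membrane, was higher in HA22T by 3.84 on the log2 scale (adjusted p = 4.82e-05 from limma). ABCG1, a cholesterol exporter, was lower at -2.83 (adjusted p = 3.14e-04 from limma), and ABCB1, the multidrug pump MDR1, at -1.54 (adjusted p = 0.00445 from limma). In all, 2 of 7 ABC transporters were higher in HA22T, 3 were lower and 2 did not pass. Beside both lists, 14.2% of all genes tested were higher and 12.4% lower.

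SOX relatives of SOX9 and SOX4 gave 0 calls in 5 tested, with 1 at an unadjusted p below 0.05 in limma. Of 5 biliary and ductal genes tested, 3 did not pass and 2 were lower in HA22T, beside 12.4% of all genes tested. These were ONECUT1 at -2.37 (adjusted p = 2.08e-04 from limma, with values on 2 HA22T arrays) and ONECUT2 at -1.53 (adjusted p = 0.00629 from limma), transcription factors of early liver and bile duct development. Of 7 Notch and Hippo genes tested, 3 were higher and 1 was lower in HA22T, beside 14.2% and 12.4% of all genes tested. They included CCN1 at 5.39 (adjusted p = 4.42e-05 from limma) and CCN2 at 2.49 (adjusted p = 0.0155 from limma), matricellular proteins that YAP induces, and NOTCH2, a receptor needed for bile duct formation, at 2.21 (adjusted p = 4.52e-05 from limma).

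Of 7 pluripotency and self-renewal regulators tested, 2 were higher and 2 lower in HA22T, beside 14.2% and 12.4% of all genes tested. KLF4, a reprogramming factor, was higher by 2.27 (adjusted p = 2.01e-04 from limma). LIN28B, which blocks let-7 maturation, and SALL4, a fetal liver factor, were lower at -3.41 (adjusted p = 1.57e-05 from limma) and -1.93 (adjusted p = 7.15e-04 from limma). Beside these, 7 of the 8 hepatocyte markers were lower in HA22T and 1 did not pass, where 12.4% of all genes tested were lower. The median log2 difference of the 8 was -4.49. ALB had a log2 difference of -3.96 (adjusted p = 1.01e-04 from limma) and HNF4A, the hepatocyte master regulator, one of -3.24 (adjusted p = 2.11e-04 from limma), while AFP had one of -0.30 (adjusted p = 0.659 from limma). The part of this in the lower SOX9, ANPEP, LGR5 and ALDH1A1 of HA22T was not tested. With siGALNT1 against siControl, 0 of the 54 list genes tested in HA22T and 0 of the 52 in PLC5 passed, and 0 and 1 had an unadjusted p below 0.05 in limma.

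**Figure D4:**
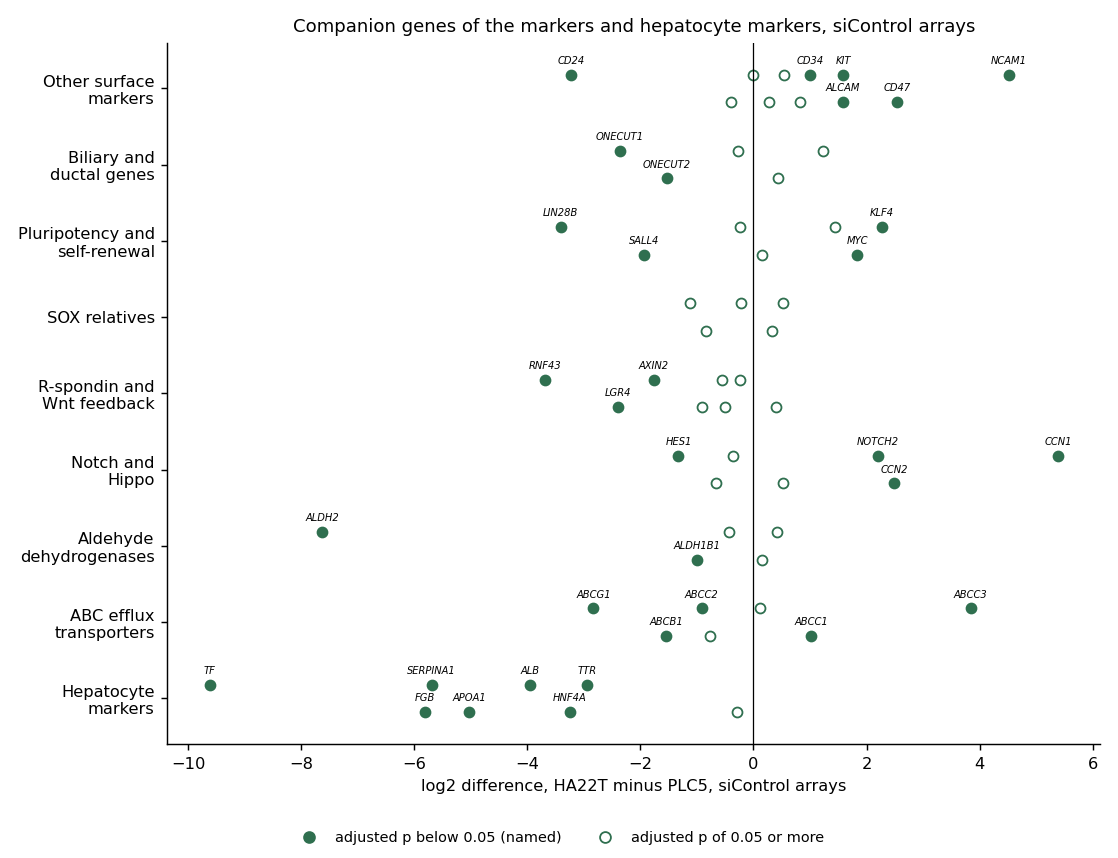
Log2 difference between HA22T and PLC5 on the siControl arrays (x axis) for the tested genes of 8 lists related to the markers and for the hepatocyte markers (y axis, one row of points per list, spread vertically for legibility). Filled and named points passed an adjusted p of 0.05 in limma; 7 of the 8 hepatocyte markers and all 3 named genes of R-spondin and Wnt feedback lie to the left of 0.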

How the data were processed

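Expression was measured on 12 one-colour arrays. Per the labels the authors read the images with Agilent Feature Extraction 10.5.1.1, and the deposited intensity values are its background-subtracted processed signals with flags for each spot. A deposited table of log2 values by the authors, scaled so that the 75th percentile of each array is near 0, served as an alternative. Here the 75th percentile of an array was subtracted from its log2 signals, control spots and non-uniform outliers (489 to 3633 spots per array) were left out, and repeated spots were averaged to 50599 probes. Probes were named through RefSeq accessions in a table of GRCh38.p14, and 28174 matched. No spot was saturated. The number of arrays limits the precision.

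The 4 groups were fitted together in limma 3.58.1 under R 4.3.3, with the prior over all probes. A probe was tested when well above background on 3 or more of the 6 arrays compared, with Benjamini-Hochberg adjustment over all tested probes and a threshold of 0.05. For each gene the probe with the highest mean of the 12 arrays was used, among probes with a value in every group. Named genes were the 10 markers, GALNT1, 3 hepatocyte markers and up to 3 called genes per list by the siControl difference between the lines. An item of the lists is not reported here and was left out of their counts. The markers and lists were chosen with earlier results of these data known. On simulated arrays for the siControl comparison of the lines (32409 probes, 50 changed at each size) recovery was 8% for log2 changes of 1, 62% for 2 and 100% for 3 and for 5, and 7 of 142 calls were false. Far fewer probes were changed there than the 22.0% called in the data, so recovery in the data may differ. The siGALNT1 comparisons within a line were not simulated.

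Within HA22T, the deviations from the group mean of same-numbered arrays of both siRNAs correlated at 0.550, 0.403 and 0.430, each above 0.1, so the numbers were taken to pair these samples. The pairing comes from the values, since the labels give only the numbers. Alternatives were normexp correction (offset 50), quantile and median scaling, other filters, the slide or replicate number as a block, other priors, the methods' t-test, the mean over probes and leaving out single arrays. The 75th percentile over unflagged spots was chosen after seeing the data.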

Additional observations from a re-analysis of the deposited data

How the results depend on the processing

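The fit within slide 1, with its lone PLC5 array, is left aside for the markers. In the siControl comparison of the lines, 5 markers passed under every other alternative except the filter asking for all 6 arrays. That filter left LGR5 untested and gave 4. In the siGALNT1 comparison the same filter left SOX9 and LGR5 untested and gave 3, the methods' t-test gave 4 and leave-one-out gave 5 to 6. All probes called between the lines numbered 8368 in siControl and 8407 in siGALNT1. Within slide 1, with fewer arrays, they were 3106 and 3136, and in siGALNT1 they were 5233 with the 6-array filter, 5288 with only the groups compared in the fit and 4113 with the methods' t-test. With the 75th percentile over unflagged spots, 59.2% of the siGALNT1 calls were higher in HA22T, against 42.8%, and the median of all probes moved from 0.10 to 0.32. In HA22T, siGALNT1 gave 1 probe. It was 3 with normexp, eBayes with trend and the prior from counted probes, and 0 with the 6-array filter, the slide block, within slide 1, the replicate block and only the groups compared in the fit. Leave-one-out gave 0 to 2. In PLC5 normexp gave 2 probes. The replicate block changed no marker call.

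Signs of differences that did not pass turned as follows, and the cause was not tested. SOX4 between the siControl lines was 0.0523 with median scaling, 0.207 with the slide block, 0.244 within slide 1, 0.0551 with the unflagged percentile and -0.203 to 0.0678 with leave-one-out. Between the siGALNT1 lines SOX4 was -0.0284 to 0.156 with leave-one-out, and EPCAM was -0.278 with quantile scaling, -0.0046 with the slide block and -0.758 to 1.85 with leave-one-out. In the HA22T knockdown, normexp gave THY1 0.138, SOX9 0.0783 and ALDH1A1 0.0961, and the mean over probes gave ALDH1A1 0.167. Leave-one-out there ran from -0.763 to 0.281 for CD44, -0.632 to 0.0415 for ANPEP, -0.375 to 1.25 for EPCAM, -0.521 to 0.126 for THY1 and -0.535 to 0.270 for PROM1. In the PLC5 knockdown, normexp gave PROM1 0.0971 and THY1 0.104, quantile scaling gave THY1 0.0099, within slide 1 SOX4 was 0.0595, and within slide 2 PROM1 was 0.221, THY1 0.131 and LGR5 -0.0365. Leave-one-out there ran from -0.272 to 0.250 for PROM1, -0.154 to 0.128 for THY1, -0.323 to 0.130 for ANPEP, -0.589 to 0.0764 for CD44, -0.164 to 0.0975 for SOX4 and -0.252 to 0.503 for LGR5. Spots near background limit EPCAM, ABCG2 and LGR5 in HA22T.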
